A study of Mus musculus with 6 samples.

Results

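Spic and 9 genes of heme and iron handling (Hmox1, Bach1, Bach2, Blvra, Blvrb, Slc40a1, Fth1, Ftl1 and Tfrc) were followed on 6 arrays of mouse hematopoietic cells. The genes were chosen by name for their place in heme breakdown and iron storage and export, with measured values of the same comparison in view. The group was therefore selected on values of these arrays, and the differences of the 10 genes between the groups are given as a description, with no test. Each of the 10 genes had 1 probe set annotated to it alone, among 19937 genes in all. A further 3 probe sets list Ftl1 together with the microRNA genes Mir692-2 and Mir692-3.

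The cells were lineage-negative (Lin-) progenitors of C57BL6 Rosa26rtTA mice, which carry a reverse tetracycline transactivator at the Rosa26 locus. The serum-free medium held mIL-3 at 20 ng/ml and mSCF, hFlt-3 and hIL-11 at 50 ng/ml each. Cells were transduced with a lentiviral vector 24 h after they were isolated, and doxycycline at 1 µg/ml followed 24 h later. In 3 EVI1 arrays the vector held EVI1, the zinc finger transcription factor of the Mecom locus, ahead of an internal ribosome entry site and EGFP. In 3 EGFP arrays it held EGFP alone, and both vectors were doxycycline-inducible (Tet). Both groups thus share the transactivator, the lentiviral vector, doxycycline, the cytokines and the sort for EGFP-positive cells. The sort is placed 20 h after doxycycline by the series text, and the sample labels give 24 h of induction before RNA. Whether the replicates come from different mice, cultures or transductions is not stated, so p-values measure only the spread between these arrays.

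Heme that is set free in a cell is broken down by heme oxygenase 1 (Hmox1) to biliverdin, carbon monoxide and iron. Biliverdin reductases turn biliverdin into bilirubin, ferritin stores the iron, and ferroportin (Slc40a1) carries it out of the cell. BACH1 represses Hmox1 and Spic when heme is scarce and is degraded when heme binds it. SPIC, an ETS-family factor related to PU.1, is needed for the red pulp macrophages of the spleen, which clear aged red cells and recycle their iron. Most ferritin and transferrin receptor control acts on translation or on the stability of the transcript, through iron regulatory proteins. Arrays read only transcript levels.

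Mecom, the gene to be overexpressed, did not check the labels. Its brighter probe set read 6.39, 7.53 and 6.86 in the EGFP arrays, against 6.29, 6.18 and 6.49 in the EVI1 arrays (log2 intensity here and below). The log2 difference, EVI1 minus EGFP, was -0.60 (limma adjusted p = 0.166). An exact permutation test, two-sided, gave p = 0.2, and 3 arrays against 3 cannot go below 0.1. Its other probe set had all EVI1 arrays below all EGFP arrays, with means of 6.58 and 6.35, a difference of -0.23 and an exact permutation p of 0.1, the smallest possible. All 4 of these group means lay under the olfactory reference given below. For the brighter probe set, leaving out EGFP replicate 1 gave -0.87 (limma adjusted p = 0.0306), and leaving out EGFP replicate 2 gave -0.30. Whether its probes read the vector's sequence is not known here, so groups and directions are those of the labels. Of genes that mark the labelled cells, the leukocyte gene Ptprc averaged 11.8 and 12.56 in the EGFP and EVI1 arrays, and the progenitor genes Kit 9.23 and 8.62, Cd34 10.95 and 8.49, and Flt3 9.13 and 7.61. Of lineage genes that Lin- cells should lack, the T cell gene Cd3e averaged 7.28 and 7.20, and the B cell gene Ms4a1 5.23 and 5.48, under the olfactory reference. The neutrophil gene Ly6g averaged 6.10 with EGFP, under the reference, and 8.70 with EVI1. EGFP replicate 2 correlated least with its group (r = 0.979 across genes), and the other arrays had r of 0.983 to 0.989. As a reference for dim signal, 1015 olfactory receptor genes had 95th percentiles of 6.95 (EGFP means) and 6.99 (EVI1 means).

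A pair of sequences is shown. The first stands upstream of Spic, the gene of the 10 with the widest difference. The second stands upstream of Blvra, the only gene among the 8 with a matched window in which any searched motif was found. Both are the 250 bases before the transcript start in RefSeq, build GRCm38.p6, printed 5′ to 3′ on the strand of the gene. The Spic window is chr10:88683024-88683273 on the minus strand, and the Blvra window is chr2:127070407-127070656 on the plus strand. Capitals in the Blvra window mark the antioxidant response core, which NRF2 and BACH1 with small MAF proteins are known to bind, as it reads on the opposite strand, at -49 to -41 from the start.
Spic: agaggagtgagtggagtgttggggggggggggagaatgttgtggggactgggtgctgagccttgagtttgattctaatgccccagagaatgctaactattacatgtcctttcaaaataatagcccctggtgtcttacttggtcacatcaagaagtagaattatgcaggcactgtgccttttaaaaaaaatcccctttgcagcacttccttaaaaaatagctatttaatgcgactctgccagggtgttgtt
Blvra: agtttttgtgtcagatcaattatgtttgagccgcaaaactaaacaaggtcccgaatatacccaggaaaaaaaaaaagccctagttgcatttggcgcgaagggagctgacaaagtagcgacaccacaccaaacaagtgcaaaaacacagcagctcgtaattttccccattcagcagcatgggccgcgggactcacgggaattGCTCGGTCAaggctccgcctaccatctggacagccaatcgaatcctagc

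Motifs were searched on both strands of 32851 windows of this length. The antioxidant response core TGACNNNGC stood in 10.2% of all windows, TGAGTCA (the core of the Maf recognition element) in 4.46%, GAGGAAGT (an ETS core of the SPI family) in 2.44%, AGATAA, of the GATA factors, in 9.99% and GACAAGATA, of the first zinc finger domain of EVI1, in 0.107%. RefSeq windows were matched for 8 of the 10 genes, 11 windows in all, and not for Hmox1 and Slc40a1. In these 11 windows the only match was the 1 in Blvra. A match is a description of letters, and the windows do not reach distant regulatory regions.

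Spic read 8.12, 6.13 and 7.40 in EGFP replicates 1, 2 and 3, and 11.85, 11.66 and 11.90 in EVI1 replicates 1, 2 and 3. All EVI1 arrays lay above all EGFP arrays, with a gap of 3.53 between the nearest values. EGFP replicate 2 lay under the olfactory reference. The means were 7.22 ± 1.01 (SD, n = 3) and 11.80 ± 0.13 (SD, n = 3), a log2 difference of 4.58 ± 0.42 (SE) or 24.0-fold. It ranked 5 among 19937 genes by size of rise. The EGFP arrays spread over 2.0 log2 units and the EVI1 arrays over 0.242. The difference was 4.04 without EGFP replicate 2 and 5.04 without EGFP replicate 1.

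Hmox1, the heme-degrading enzyme, read 10.47, 11.03 and 9.80 in the EGFP arrays, against 12.41, 12.78 and 12.43 in the EVI1 arrays. The groups did not overlap, and EGFP replicate 2, the lowest array for Spic, was the highest EGFP array for Hmox1. The means were 10.43 ± 0.61 (SD) and 12.54 ± 0.21 (SD), a difference of 2.11 ± 0.28 (SE, n = 3 per group) or 4.31-fold, at rank 117 by size of rise. The range on leaving out any 1 array was 1.79 to 2.40.

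**Figure D1:**
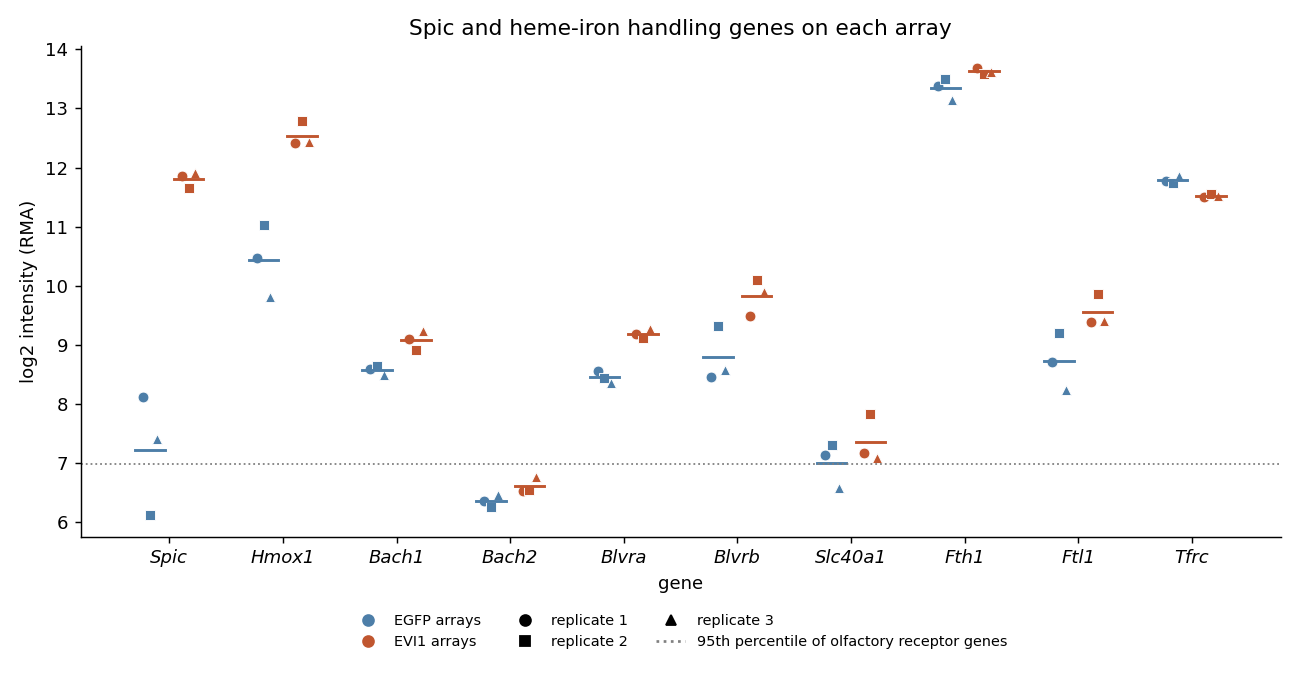
Log2 intensity (RMA, y axis) of the 10 genes on each of 6 arrays, EGFP in blue and EVI1 in orange, with marker shape for the replicate number, a bar for the group mean (n = 3) and a dotted line at 6.99, the olfactory reference. Spic and Hmox1 are far apart between groups, Slc40a1 overlaps, Bach2 stays under the line and Tfrc is lower in all 3 EVI1 arrays.

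The biliverdin reductases, which follow heme oxygenase, were both higher in the EVI1 arrays. Blvra read 8.55, 8.45 and 8.35 in the EGFP arrays against 9.18, 9.12 and 9.27 in the EVI1 arrays, and the spread within each group was small beside the gap. The difference was 0.74 ± 0.11 (SE), from means of 8.45 ± 0.10 and 9.19 ± 0.07 (SD), a 1.67-fold difference. Blvrb, also known as flavin reductase and abundant in red cells, read 8.46, 9.32 and 8.58 against 9.49, 10.10 and 9.89. EGFP replicate 2 came within 0.171 of the lowest EVI1 array, so the groups were only just apart. Its difference was 1.04 ± 0.24 (SE), 2.05-fold, from means of 8.79 ± 0.46 and 9.83 ± 0.31 (SD).

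Of the heme-sensing repressors, Bach1 was higher and Bach2 was too dim to follow. Bach1 read 8.58, 8.64 and 8.49 in the EGFP arrays, against 9.09, 8.91 and 9.23 in the EVI1 arrays. The groups did not overlap, and the difference was 0.51 ± 0.12 (SE) or 1.42-fold, from means of 8.57 ± 0.08 and 9.08 ± 0.16 (SD). Bach2, a relative of Bach1 best known in lymphocytes, read 6.35, 6.25 and 6.46 against 6.53, 6.55 and 6.77. All 6 values lay under the olfactory reference of their group, so the difference of 0.26 ± 0.12 (SE) is uncertain in size. The transcript of Bach1 does not show the amount of its protein, which heme lowers.

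Both ferritin subunits had higher means in the EVI1 arrays, Fth1 by little and Ftl1 by more. Fth1, the heavy chain that oxidises iron, read 13.38, 13.50 and 13.14 in the EGFP arrays, against 13.68, 13.58 and 13.62 in the EVI1 arrays, a difference of 0.29 ± 0.12 (SE). The groups came within 0.0741 of each other, and without EGFP replicate 3 the difference was 0.18. Ftl1, the light chain, read 8.72, 9.20 and 8.23 against 9.39, 9.85 and 9.40 on its own probe set, a difference of 0.83 ± 0.24 (SE) or 1.78-fold. The groups were apart by 0.189, and EGFP replicate 2 was again the EGFP array nearest to the EVI1 arrays. On the 3 probe sets shared with microRNA genes, which name no single gene, the differences were 0.44, 0.62 and 0.61, with EGFP means of 7.13, 11.78 and 12.67. Ferritin genes have near-identical copies in the mouse genome, so which transcript each ferritin probe set reads is uncertain.

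The transcript of an iron exporter had a higher EVI1 mean and that of an iron importer a lower one, both by little. Neither was called in the limma fit given below. Slc40a1, the iron exporter ferroportin, read 7.14, 7.30 and 6.57 in the EGFP arrays, against 7.17, 7.82 and 7.09 in the EVI1 arrays. The groups overlapped, and both means (7.0 ± 0.38 and 7.36 ± 0.40, SD) lay close to the olfactory reference. The difference of 0.36 ± 0.24 (SE) became 0.13 without EVI1 replicate 2 and 0.14 without EGFP replicate 3. Tfrc, the transferrin receptor that imports iron, read 11.78, 11.73 and 11.85 against 11.50, 11.54 and 11.52. All EVI1 arrays lay below all EGFP arrays, and the difference was -0.26 ± 0.10 (SE), 1.20-fold lower, from means of 11.79 ± 0.06 and 11.52 ± 0.02 (SD). Tfrc was the 1 gene of the 10 with a lower EVI1 mean.

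Across the 10 genes the groups did not overlap for 9, of which 8 were higher and 1 lower in the EVI1 arrays, where 32.6% of all genes had groups that did not overlap. At a limma adjusted p under 0.05 over all genes, 6 of the 10 were called, all higher (Spic, Hmox1, Bach1, Blvra, Blvrb and Ftl1). Of all genes 18.2% were called, 9.06% higher and 9.18% lower. Because the genes were picked with this comparison known, nothing is read from these counts. Without EGFP replicate 3, and likewise without EVI1 replicate 3, only Spic, Hmox1 and Blvra were called. Bach1 and Ftl1 lost their calls without EVI1 replicate 1, and Blvrb and Ftl1 without EGFP replicate 1 or EVI1 replicate 2. The median difference of the 10 genes was 0.62, and that of all genes 0.0060.

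**Figure D2:**
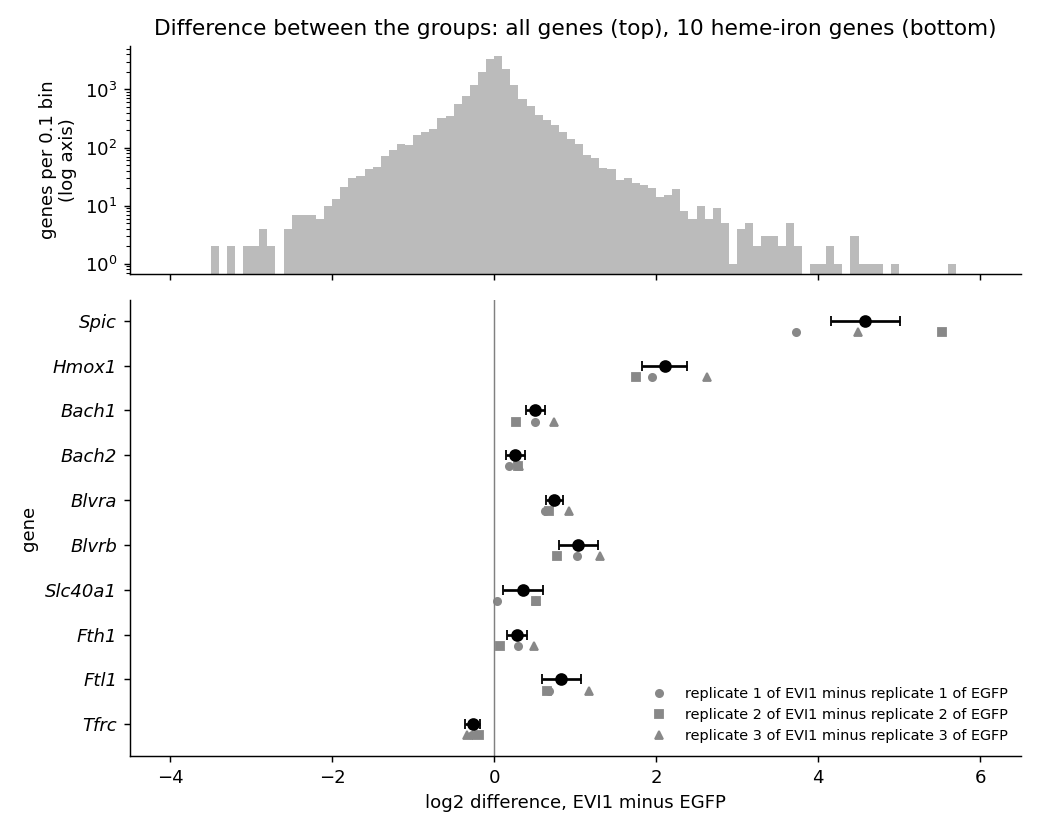
Top, number of genes (log axis) per 0.1 of log2 difference, EVI1 minus EGFP, for 19937 genes; bottom, the same difference for the 10 genes, with bars for the SE of the limma fit (3 arrays per group) and grey markers for each replicate number's own difference. Spic (4.58) and Hmox1 (2.11) lie in the right tail, and Tfrc (-0.26) is the only 1 of the 10 left of 0.

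The genes were chosen with results of this comparison known, so the spread within groups is given as a description too. In deviations from the group means, Spic ran most against Blvrb (r = -0.846), Ftl1 (-0.609) and Hmox1 (-0.596). It ran less against Fth1, Slc40a1 and Bach1, and not against Blvra (0.378), Bach2 and Tfrc. Replicate 2 was the highest array of both groups for 4 of the 10 genes: Hmox1, Blvrb, Slc40a1 and Ftl1. Over all genes the same held for 14.4%. This look at replicate 2 was made after the values had been seen. The deviations of EGFP replicate 2 from its group mean were 0.60 for Hmox1, 0.53 for Blvrb, 0.49 for Ftl1 and 0.30 for Slc40a1, against -1.09 for Spic. In EVI1 replicate 2 they were 0.24, 0.27, 0.30 and 0.46, against -0.14 for Spic. Blvra lay near its group mean in both (-0.0038 and -0.068), on the side of Spic. The 4 genes were picked for being highest in replicate 2, so their side of the group mean there was fixed by the pick. Spic lay below its group mean in replicate 2 of either group, by far less in EVI1 (-0.14) than in EGFP (-1.09). Spic and the 4 genes, except Slc40a1, were higher in EVI1 with no overlap. Same-numbered arrays deviated together over all genes (r = 0.491, 0.269 and 0.197 across 19937 genes for replicates 1, 2 and 3). What replicates with 1 number share is not given, and its part in this pattern was not tested.

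**Figure D3:**
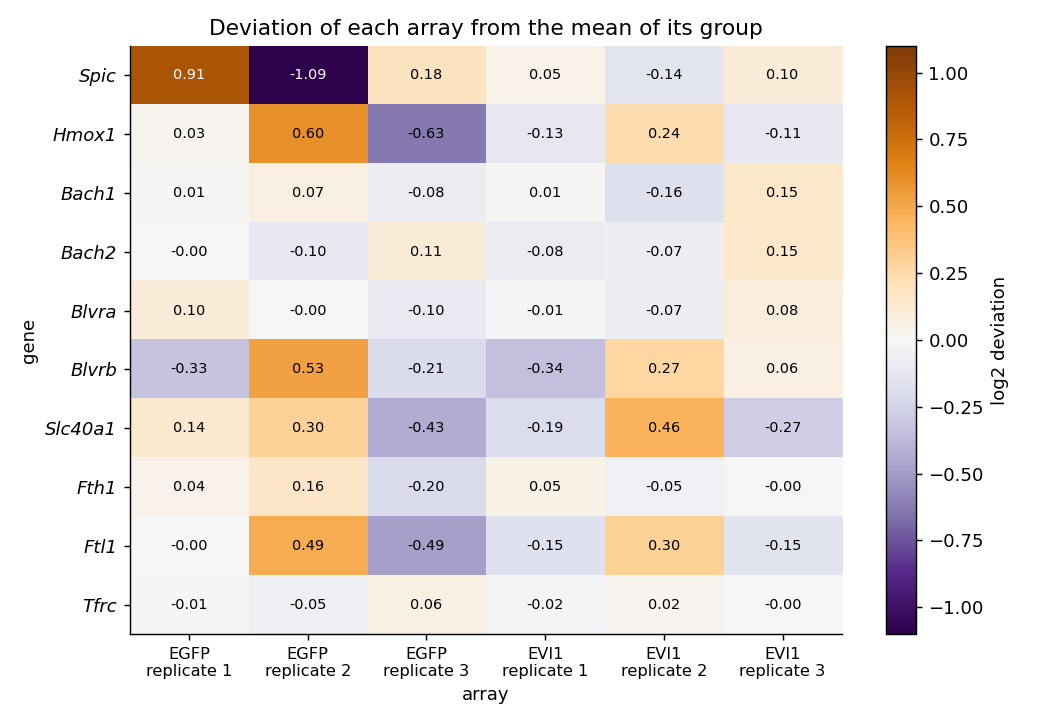
Log2 deviation of each array (columns) from the mean of its own group for the 10 genes (rows), orange above and purple below the mean. Replicate 2 of either group is above the mean for Hmox1, Blvrb, Slc40a1 and Ftl1, which were picked for being highest there. It is below the mean for Spic (-1.09 and -0.14).

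The genes whose levels ran closest to Spic over the 6 arrays were Galnt3, a glycosyltransferase (r = 0.999), Casp1, the inflammatory caspase (r = 0.998), St8sia4, a polysialyltransferase (r = 0.998), Chil1, a chitinase-like protein (r = 0.998), and Dusp16, a MAP kinase phosphatase (r = 0.998). They were taken from 2041 genes with an SD of at least 0.5 over the arrays, and the step between the groups makes up much of each r. After the group means were taken out, the closest were Casp1 (r = 0.999), Tbl1xr1 (0.995), Rassf2 (0.992), Ptger3 (0.991) and Zdhhc17 (0.991), over 6 arrays. Casp1 was the 1 gene on both lists. Its log2 difference was 1.40, while that of Ptger3, a prostaglandin receptor, was -1.61. Of the other 9 heme-iron genes, Blvra was nearest to Spic over the 6 arrays (r = 0.969), and Blvrb ran against it within groups (r = -0.846). Spic deviated from its group mean by 0.906, -1.09 and 0.184 in the EGFP arrays, but by 0.0486, -0.145 and 0.0968 in the EVI1 arrays. Each r taken without the group means therefore rests mostly on the EGFP arrays, with Spic under the olfactory reference in EGFP replicate 2. All values of r here are descriptions of 6 arrays and carry no p.

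SPIC's closest relatives were higher as well. Of 4 genes of the SPI family and their interferon regulatory factor partners, 2 rose and 2 did not pass (in this and the following lists, by the limma fit over all genes, to be read against the 9.06% and 9.18% above). Spib, a factor of B cells and plasmacytoid dendritic cells, went from 6.88 ± 0.15 to 8.68 ± 0.35 (SD, n = 3 each), a rise of 1.80 ± 0.18 (SE, limma adjusted p = 0.000438), with an EGFP mean under the olfactory reference. Spi1, which encodes PU.1, rose by 0.73 ± 0.15 (limma adjusted p = 0.0128), a call lost without EVI1 replicate 3 (0.0590). Irf4 (-0.38) and Irf8 (-0.24) did not pass, although all EVI1 arrays lay below all EGFP arrays for both. For Spib and Spi1 all EVI1 arrays lay above. The EVI1 mean of Irf4 (6.62) lay under the olfactory reference.

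Among partners and known targets of BACH1 and NRF2, genes rose and none fell, but not all passed. BACH1 and NRF2 compete for the same elements, with small MAF proteins as partners. Of 7 partners 3 rose and none fell: Nfe2l2, which encodes NRF2 (0.90 ± 0.13 SE, limma adjusted p = 0.00233), Nfe2, its erythroid and megakaryocytic relative (0.90 ± 0.13), and the small MAF gene Maff (0.64 ± 0.11). Mafk did not pass (0.21). Of 15 targets, 9 rose, 6 did not pass and none fell, and their median was 0.68. This list, like the others, was chosen with earlier results of these data known, so its counts support nothing independently. Nqo1, a quinone reductase, read 7.64, 7.65 and 7.50 in the EGFP arrays, against 10.34, 11.05 and 10.77 in the EVI1 arrays. The EVI1 arrays all lay far above, and the rise was 3.13 ± 0.17 (SE) or 8.73-fold (limma adjusted p = 4.32e-05). Sqstm1, the autophagy adaptor p62, rose by 1.28 ± 0.17, Me1, malic enzyme, by 0.96 ± 0.14, and Gclm, the modifier subunit of glutathione synthesis, by 1.09 ± 0.21. Its catalytic partner Gclc (0.040 ± 0.15) did not pass. The count of 9 was 4 without EGFP replicate 3, and also without EVI1 replicate 1, 2 or 3.

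Genes that make heme mostly did not pass. Of the 12 measured, 2 rose, 10 did not pass and none fell, with a median of -0.038. Abcb10, a mitochondrial transporter of erythroid cells, rose by 0.87 ± 0.11 (SE, limma adjusted p = 0.00136), and Urod, uroporphyrinogen decarboxylase, by 0.55 ± 0.12 (0.0146). Alas1, the first and rate-limiting enzyme outside red cells, which heme represses, differed by -0.57 ± 0.17 (limma adjusted p = 0.0579), and its groups did not overlap. The porphyrin transporter Abcb6 differed by 0.54 ± 0.17 (0.0601). With a replicate block 4 genes rose and 2 fell, among them Abcb6 (0.0108) and Alas1 (0.0302). Alas1 also passed with either filter on dim probe sets (0.0492 and 0.0432), further quantile normalisation (0.044) or without EVI1 replicate 1 (0.025). Abcb6 also passed without probe sets under the median level (0.045), with array weights (0.0251) or without EGFP replicate 2 (0.0144). The 2 rises became 5 without EGFP replicate 2 and 1 without EGFP replicate 3 or EVI1 replicate 2.

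Of 11 genes that take up, move or scavenge heme 3 rose and 1 fell, with a median of 0.089. Slc48a1, which carries heme out of the lysosome, rose by 1.20 ± 0.17 (SE, limma adjusted p = 0.00215), and Hp, the hemoglobin-binding haptoglobin, by 1.06 ± 0.18 (0.00522). Hmox2, the constitutive heme oxygenase, rose by 0.46 ± 0.13 (0.0402), a call lost in 7 of 15 alternatives (0.0532 to 0.143). Abcg2, a stem cell efflux pump that also exports porphyrins, fell by 1.17 ± 0.14 (0.000859), or 2.24-fold. Without EGFP replicate 2 a second gene was called lower.

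Cellular iron transport changed in both directions. Of 16 measured, 4 fell, 3 rose and 9 did not pass, with a median of -0.018. Cp, the ferroxidase ceruloplasmin that works beside ferroportin, read 7.92, 8.08 and 8.11 in the EGFP arrays, against 11.06, 11.10 and 11.11 in the EVI1 arrays. It was the steepest rise of the list, 3.05 ± 0.10 (SE) or 8.29-fold (limma adjusted p = 4.23e-06), with a spread far below the gap. The metalloreductases that were called went apart. Steap4 rose by 1.64 ± 0.24 (0.00267), from an EGFP mean under the olfactory reference. Steap3, the one of erythroid endosomes, fell by 0.83 ± 0.13 (0.00313). The other metalloreductases of the list did not pass. Slc39a8, a zinc and iron importer, fell by 1.08 ± 0.12 (0.000637). The 4 falls became 2 without EGFP replicate 1 or EVI1 replicate 3.

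Among 13 genes of iron sensing and ferritin turnover 2 rose and none fell, with a median of 0.024. Ncoa4, the receptor that delivers ferritin to the lysosome, rose by 0.64 ± 0.10 (SE, limma adjusted p = 0.00399), and Hfe, a partner of transferrin receptors, by 0.58 ± 0.14 (0.0206). Hfe lost its call without EGFP replicate 1 or 3 or EVI1 replicate 1 or 2 (0.0603 to 0.0794). Fbxl5, the ubiquitin ligase subunit that senses iron, differed by 0.74 ± 0.26 (0.0914), and Ltf, lactoferrin of neutrophil granules, by -1.40 ± 0.50 (0.0991). With a replicate block Fbxl5 (0.00922) and Ltf (0.0295) passed. Of 11 mitochondrial iron and iron-sulfur cluster genes 1 rose, the iron importer Slc25a37 (0.42 ± 0.10, limma adjusted p = 0.0214), and 1 fell, the chaperone Hspa9 (-0.86 ± 0.16, 0.00732), with a median of -0.079. Slc25a37 lost its call without EGFP replicate 1 or 3 or EVI1 replicate 1 or 2 (0.0641 to 0.0895). Isca1 (0.78 ± 0.26) and Lyrm4 (0.34 ± 0.11) did not pass. Isca1 passed with a replicate block (0.00269), without EGFP replicate 2 (0.0448) or without EVI1 replicate 1 (0.0206).

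**Figure D4:**
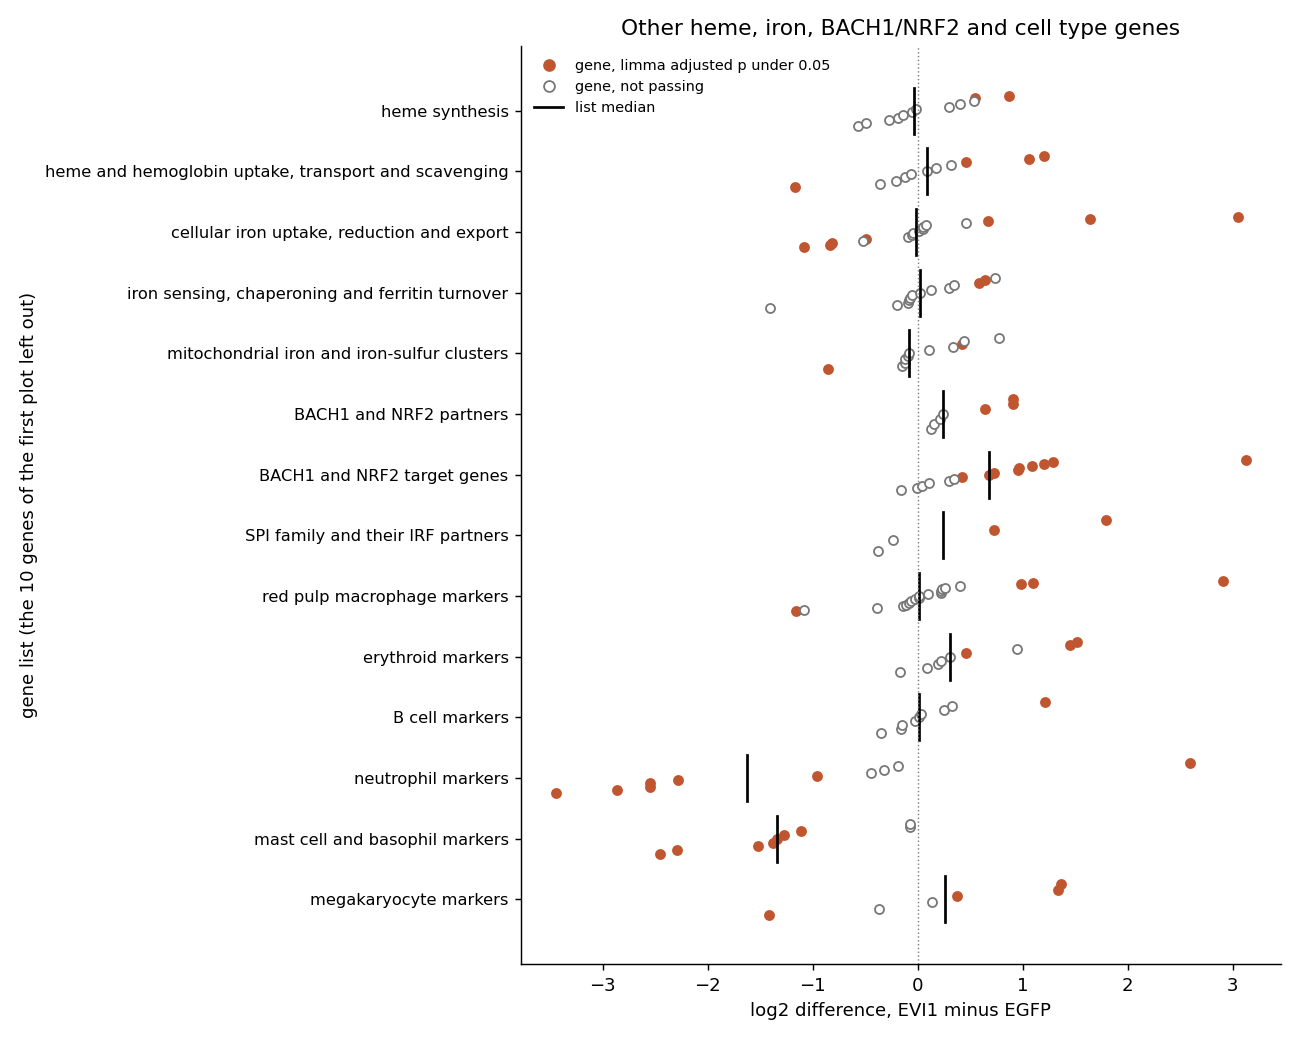
Log2 difference, EVI1 minus EGFP (x axis), of each measured gene of 14 lists, filled where the limma adjusted p over all genes was under 0.05, with a bar for the list median. The targets of BACH1 and NRF2 have 9 filled points right of 0 and none left of it, while heme synthesis and iron transport lie on both sides.

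Most red pulp macrophage markers did not pass. Of 19 measured, 1 fell, 3 rose and 15 did not pass, with a median of 0.011, and 8 had both group means under the olfactory reference. Among those 8 were Vcam1, Cd163, Siglec1 and Cd5l, while Adgre1, which encodes a macrophage surface receptor, was bright, with means of 10.56 ± 0.65 and 9.48 ± 0.60 (SD), overlapping groups and a difference of -1.08 ± 0.37 (limma adjusted p = 0.0845). These 5 were named after their values were seen. Mertk, a receptor for apoptotic cells, went from 6.45 ± 0.28 to 9.36 ± 0.39 (SD), a rise of 2.91 ± 0.21 (SE, limma adjusted p = 0.000156), with an EGFP mean under the reference. Axl, its relative, rose by 1.09 ± 0.18 (0.00436), and Mrc1, the mannose receptor, by 0.99 ± 0.23 (0.0199), a call lost without EGFP replicate 3 or EVI1 replicate 1 or 3. Csf1r, the macrophage growth factor receptor, fell by 1.16 ± 0.27 (0.0199), a call lost without EGFP replicate 1 or EVI1 replicate 2 or 3, while 2 markers fell with a replicate block. In 8 of the 19 markers, Cd5l among them, all EVI1 arrays lay above all EGFP arrays, and in 1 all lay below. Over all 19937 genes this held for 3215 above and 3289 below. Mean levels of the list were 7.27 to 7.41 in the EGFP arrays and 7.43 to 7.56 in the EVI1 arrays.

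Markers of other cells moved between the groups, and in bulk RNA fewer cells of a type and less RNA per cell cannot be told apart. Of 9 erythroid markers 3 rose: the band 3 gene Slc4a1 (1.45 ± 0.21 SE, limma adjusted p = 0.00262), Tmod1 (1.52 ± 0.13) and Epor (0.46 ± 0.12). Epor lost its call without EGFP replicate 1 or 3 or EVI1 replicate 1 or 3. The other 6, Klf1 (0.092) and Gata1 (0.22) among them, did not pass, and the list median was 0.30. List means were 7.48 to 7.58 in the EGFP and 7.97 to 8.22 in the EVI1 arrays. The globin genes were not analysed here. Of 9 B cell markers only Cd79b rose (1.22 ± 0.20, 0.00441) and none fell, with 4 markers under the reference in both groups, Ms4a1 and Cd79a among them, and means of 6.67 to 6.75 against 6.79 to 6.90. Of 10 neutrophil markers 6 fell, with Elane at -2.29 ± 0.18, and 1 rose, Ly6g (2.59 ± 0.36, 0.00186), with means of 10.58 to 11.02 against 8.95 to 9.72. Of 9 mast cell and basophil markers 7 fell, with Ms4a2 at -2.46 ± 0.20, and means were 10.04 to 10.56 against 8.88 to 9.06. Of 6 megakaryocyte markers 3 rose, Itgb3 (1.34 ± 0.15) among them, and 1 fell, Pf4 (-1.41 ± 0.22), with means of 9.11 to 9.45 against 9.51 to 9.61. The part of these cell types in the differences of Spic, Hmox1 and the other heme-iron genes was not tested.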

How the data were processed

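Expression was measured on 6 single-colour arrays, 3 labelled EVI1 and 3 labelled EGFP. The deposited values are log2 intensities made with RMA, per the submitters' processing notes; its version is not given in the sources used here. RMA pulls the arrays towards 1 distribution (medians 7.24 to 7.31), so a change of total RNA per cell would not show. With 3 arrays a group, precision is limited by that number.

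Of 34760 probe sets, 21640 carried 1 gene symbol, 1321 several and 11799 were unnamed here. A gene was its probe set with the highest mean, which gave 19937 genes, with no filter on dim probe sets. All genes were compared by lmFit and eBayes of limma 3.58.1, under R 4.3.3, two-sided, with Benjamini-Hochberg adjustment over all genes and a threshold of 0.05, also for pathway genes. A basic lmFit and eBayes fit of the same form was tested on simulated data, without the choice of probe sets, the lists or the alternatives.

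The 10 genes and the 14 lists were chosen with earlier results of these data known, so their counts support nothing independently. The 10 genes were left out of every list. Named were the 10 genes, Mecom, per list the up to 4 genes of smallest p (all called genes where 5 or fewer), and the 5 genes most like Spic by each of 2 measures; in lists named in short, only some of these are printed. Gclc, Vcam1, Cd163, Siglec1, Cd5l, Adgre1, Klf1, Gata1 and the genes that check the labelled cells (Ptprc, Kit, Cd34, Flt3, Cd3e, Ms4a1, Ly6g) were named after their values were seen. The labels state no block, and the main comparison has none. Replicate numbers served as a block only in an alternative fit, since each pair's deviations from the group means correlated above 0.1 across genes (r = 0.491, 0.269 and 0.197). Alternatives were the block, other ways to join or filter probe sets, trend and robust eBayes, further normalisation or centring, array weights, and each array left out. Promoters are RefSeq's, GRCm38.p6, and protein sequences were not used here.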

Additional observations from a re-analysis of the deposited data

How the results depend on the processing

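With a replicate block 4361 genes were called in place of 3638, and 3585 were called the same way in both. Apart from the genes and counts for which it is given above, the block changed no call among the listed genes that the naming rule chose and that are printed above. Leaving out 1 array at a time gave 2289 (without EVI1 replicate 3) to 4098 called genes. For the 150 listed genes 57 were called, 69 with the block, 54 to 60 in the other settings with 6 arrays, and 41 to 66 with 1 array left out. The median difference of the 10 heme-iron genes was 0.62, 0.53 to 0.65 with 1 array left out, and 0.79 when the dimmer probe sets (mean level below the median) were dropped, which removes Bach2 and Slc40a1. None of the 10 genes changed direction in any of the 15 alternatives that tested it. Ftl1 was also not called when every probe set was tested as its own row or arrays were centred on their medians, beside the 5 runs with 1 array left out that are named above, and so in 7 of 15 alternatives. Mecom differed by -0.87 to -0.30 with 1 array left out, and -0.87 (without EGFP replicate 1) passed at an adjusted p of 0.0306. Dropping only probe sets under the 25th percentile of mean level removed Bach2 but kept Slc40a1 and Mecom. That filter therefore did not remove all genes near or under the olfactory reference, whose differences are limited by signal.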
